A study of Mus musculus with 9 samples.

Results

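The 49 genes described here encode chemokines and chemokine receptors, out of 17731 genes measured. They were chosen by gene symbol, with earlier results of these data known. Every probe set with 1 gene symbol that begins with Ccl, Cxcl, Ccr, Cxcr or Ackr and a digit was taken. Cx3cl1, Xcl1, Xcr1 and Ccrl2 were added, and Cxcl12, Cxcr2, Ccr2 and Ccr3 were left out by name. By role they were 17 CC ligands, 12 CXC ligands, 2 other ligands (Xcl1 and Cx3cl1), 13 signalling receptors and 5 atypical receptors, a class counted here as Ackr1 to Ackr4 and Ccrl2. Each had 1 probe set.

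Expression was measured on 9 Affymetrix mouse arrays, 3 for each of 3 groups of cells from C57BL6 mice. IDH1mut cells carried the retroviral vector pSF91-IDH1mut-IRES-GFP with a mutant of isocitrate dehydrogenase 1, IDH1wt cells carried pSF91-IDH1wt-IRES-EGFP with the wild-type enzyme, and CTL cells carried the EGFP control vector without an IDH1 insert. All 3 groups were bone marrow cells immortalised with the homeobox gene HoxA9, put into irradiated mice, and sorted from the marrow as GFP-positive cells 4 weeks after transplantation, so the controls carry HoxA9 and a vector too. Which IDH1 mutation was used, the ages of the mice, whether a group derives from 1 clone, and whether each array stands for a separate mouse are not given in the sources used here. The p-values therefore measure the spread between these arrays, which may be technical.

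Chemokines are small secreted proteins that steer leukocytes along gradients, and they are named by the spacing of their first cysteines, as CC or CXC. They act through receptors coupled to inhibitory G proteins, whereas atypical receptors bind chemokines without that signal and scavenge or present them. In the marrow, CXCR4 holds stem cells, progenitors and immature neutrophils in place, and CCR1 is a receptor of neutrophils, monocytes and progenitors that binds, in the mouse, CCL3, CCL5, CCL6 and CCL9.

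Ccr1 and 3 genes of its ligands, Ccl6, Ccl9 and Ccl3, changed in IDH1mut against CTL, and their promoters are shown for that reason. Each sequence runs 5′ to 3′ along the gene, from 250 bases before the annotated start to 50 bases after it, as RefSeq gives it. Capitals mark a match to the kappa-B consensus, the binding motif of NF-kB factors, searched on both strands.
Ccl6 promoter (GRCm38.p6, chr11:83593038-83593337, minus strand): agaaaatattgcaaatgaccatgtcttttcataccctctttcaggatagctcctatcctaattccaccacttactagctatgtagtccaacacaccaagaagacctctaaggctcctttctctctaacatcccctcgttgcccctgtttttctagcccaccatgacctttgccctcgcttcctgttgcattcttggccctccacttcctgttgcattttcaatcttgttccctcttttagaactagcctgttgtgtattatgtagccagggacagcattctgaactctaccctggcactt
Ccl9 promoter (GRCm38.p6, chr11:83578587-83578886, minus strand): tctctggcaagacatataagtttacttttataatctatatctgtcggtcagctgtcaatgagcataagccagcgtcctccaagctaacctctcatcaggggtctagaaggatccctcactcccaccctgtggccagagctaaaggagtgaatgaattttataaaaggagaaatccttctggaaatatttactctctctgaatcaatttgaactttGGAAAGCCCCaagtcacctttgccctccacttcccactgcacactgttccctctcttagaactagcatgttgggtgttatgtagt
Ccl3 promoter (GRCm38.p6, chr11:83649329-83649628, minus strand): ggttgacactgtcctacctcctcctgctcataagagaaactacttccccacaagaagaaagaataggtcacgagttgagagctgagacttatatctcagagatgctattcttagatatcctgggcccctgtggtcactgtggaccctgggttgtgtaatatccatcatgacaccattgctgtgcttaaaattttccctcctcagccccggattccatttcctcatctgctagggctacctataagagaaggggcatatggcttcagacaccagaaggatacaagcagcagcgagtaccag
Ccr1 promoter (GRCm38.p6, chr9:123968643-123968942, minus strand): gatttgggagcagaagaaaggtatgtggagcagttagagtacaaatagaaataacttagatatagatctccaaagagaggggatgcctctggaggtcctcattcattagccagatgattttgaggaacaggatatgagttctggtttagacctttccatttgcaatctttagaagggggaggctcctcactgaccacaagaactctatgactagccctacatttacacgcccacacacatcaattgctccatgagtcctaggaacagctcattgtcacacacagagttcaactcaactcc

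Only the Ccl9 promoter of these 4 held a kappa-B match, which begins 35 bases before the start and lies on the opposite strand. A promoter was on file for 36 of the 49 genes, and 9 of the 36 (25%) held the motif in at least 1 of their promoters, against 5.14% of 27025 genes. These 9 were Ccl9, Ccl20, Cxcl1, Cxcl2, Cxcl3, Cxcl10, Ccr6, Ackr2 and Ccrl2. TATAAA, searched on both strands as well, was present for 14 of the 36 genes (38.9%) and for 15.7% of all genes. The motif search describes letters and was not a test of binding. The promoters of Ccl6 and Ccl9 were alike near their starts: a local alignment paired 74 columns at 79.7% identity, and the longest exact run in common was gccctccacttcc. Among the other pairs of these 4 promoters the longest alignment spanned 20 columns.

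In IDH1mut against CTL, Ccl6, Ccr1, Cxcr3, Ccrl2 and Ccr9 rose, and Ccl9, Ccl3 and Ccr10 fell. Ccl6 was 3.62-fold higher, Ccr9 was 2.55-fold higher and Ccr1 was 1.96-fold higher, while Ccl9 was 1.90-fold lower. These 8 of 49 genes make up 16.3%, beside 20.7% of all 17731 genes that changed in the same comparison (10.1% rose and 10.6% fell). The arrays of 17 members did not overlap between IDH1mut and CTL, where 37.8% of all genes did not. "Rose", "fell" and "changed" mean a Benjamini-Hochberg adjusted p under 0.05 over all genes in one limma fit, fold changes are differences of mean log2 values with their moderated standard error (SE), and all adjusted p-values below come from that fit. The median log2 difference was -0.04 over the members and -0.04 over all genes. The count was 5 without CTL replicate 3 (2603 of all 17731 genes) and 4 in an unmoderated test (2955 of all genes). The unmoderated test lost Ccr9 (adjusted p = 0.0888), Ccl3 (0.0645), Ccr10 (0.0605) and Ccl9 (0.0548).

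**Figure D1:**
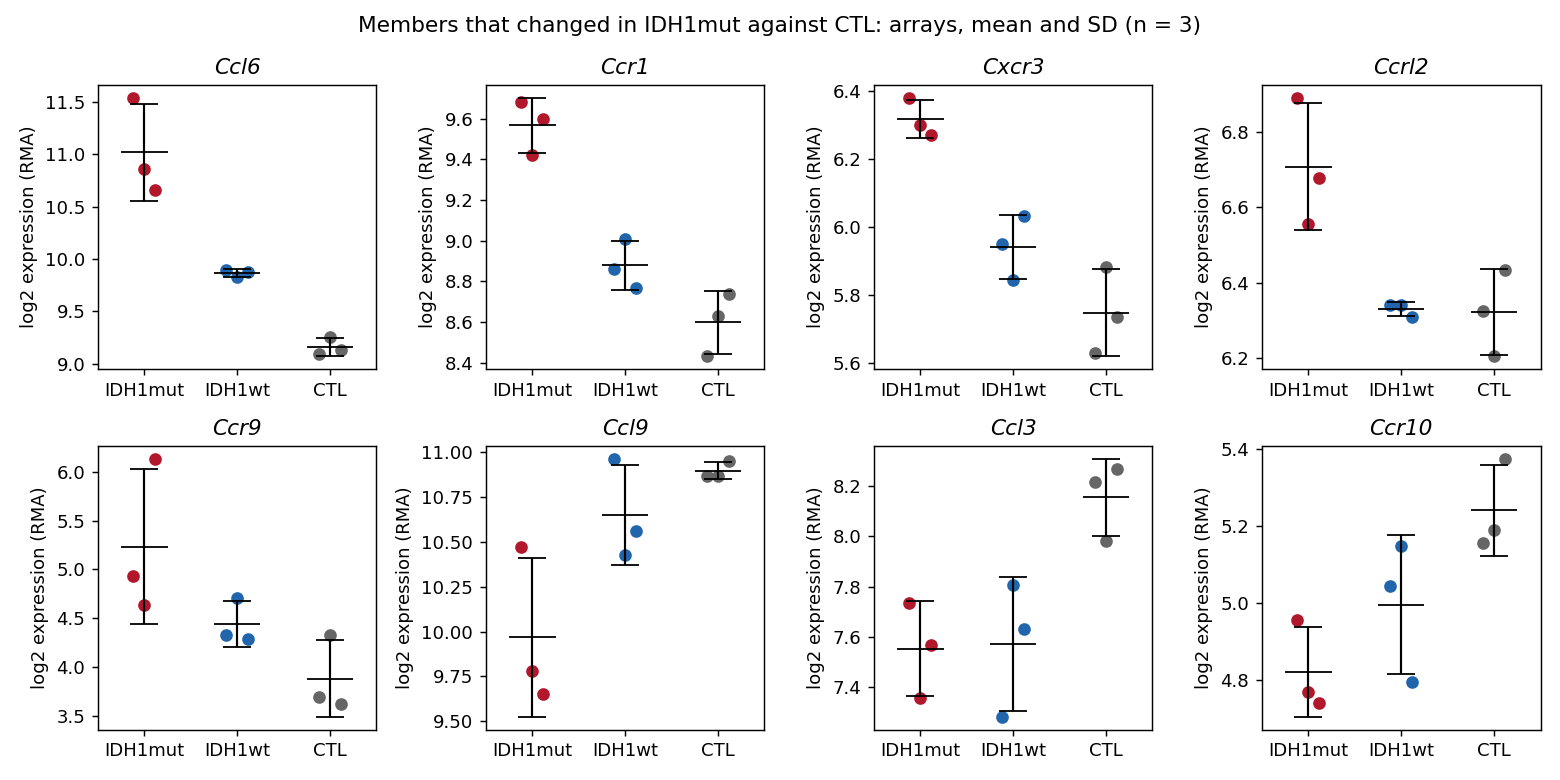
The log2 expression value of each array (points), with the mean and SD of 3 arrays (bars), for the 8 members that changed in IDH1mut against CTL, with an own scale for each gene. In every panel the IDH1mut arrays stand clear of the CTL arrays, and for Ccl6, Ccr1, Cxcr3 and Ccrl2 they stand clear of the IDH1wt arrays too.

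The probe sets of 17 members had a mean above the median of all gene means (4.94 on the log2 scale), and 7 of these 17 (41.2%) changed in IDH1mut against CTL, beside 35.1% of all genes above that line. Of the 32 dimmer members 1, Ccr9, changed, beside 6.25% of all genes below it. The deposited values hold no detection call, so whether the dim members were present was not tested.

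Of the 18 receptors 5 changed (27.8%, beside 20.7% of all genes), with Ccr1, Cxcr3, Ccr9 and the atypical Ccrl2 up and Ccr10 down. Ccr1 read 9.68, 9.42 and 9.60 in IDH1mut, 8.86, 9.01 and 8.77 in IDH1wt and 8.43, 8.63 and 8.74 in CTL. The IDH1mut arrays overlapped neither other group, and the IDH1wt arrays all lay above the CTL arrays by a smaller step. Ccr1 rose by 0.97 ± 0.11 on the log2 scale in IDH1mut against CTL (SE, n = 3 against 3; adjusted p = 0.00023) and by 0.69 ± 0.11 in IDH1mut against IDH1wt (adjusted p = 0.00304), while IDH1wt against CTL did not pass (0.28 ± 0.11; adjusted p = 0.247).

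Cxcr3, the receptor of the interferon-induced ligands CXCL9, CXCL10 and CXCL11, read 6.38, 6.30 and 6.27 in IDH1mut, 5.95, 5.85 and 6.03 in IDH1wt and 5.63, 5.88 and 5.73 in CTL. The IDH1mut arrays sat within a narrow band above all others, and IDH1wt and CTL arrays overlapped. It rose by 0.57 ± 0.10 against CTL (adjusted p = 0.00208) and by 0.38 ± 0.10 against IDH1wt (adjusted p = 0.0281). The second call was lost without IDH1wt replicate 1 (adjusted p = 0.0646) or 2 (0.0827) and without IDH1mut replicate 1 (0.0776), 2 (0.0689) or 3 (0.05). T and NK cells are known carriers of CXCR3. Of 15 T and NK marker genes 2 rose and 1 fell in IDH1mut against CTL (20%, beside 20.7% of all genes). The log2 of their summed level ranged from 9.10 to 9.29 in IDH1mut, from 9.08 to 9.28 in IDH1wt and from 9.10 to 9.22 in CTL. Their mean log2 level was 4.80 to 4.99 in IDH1mut, 4.58 to 4.68 in IDH1wt and 4.75 to 4.78 in CTL. On average 14 of the 15 were higher in IDH1mut than in IDH1wt (median log2 difference 0.22). In that comparison 2 rose and 1 fell (20%, beside 13.3% of all genes). Their part in the Cxcr3 differences was not tested.

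Ccr9, the receptor of CCL25 on thymus-seeding progenitors, plasmacytoid dendritic cells and gut-homing lymphocytes, read 4.93, 4.64 and 6.14 in IDH1mut, 4.33, 4.71 and 4.28 in IDH1wt and 3.70, 4.33 and 3.62 in CTL. IDH1mut replicate 3 stood above the other arrays by more than a log2 unit, and CTL replicate 2 was the high array of its group. The rise in IDH1mut against CTL was 1.35 ± 0.32 (adjusted p = 0.0124), it was 0.90 without IDH1mut replicate 3, and its call was lost without CTL replicate 3 (adjusted p = 0.0513). The 11 B cell markers (3 rose and 0 fell) had mean log2 levels of 6.50, 6.35 and 7.31 in IDH1mut, 4.95, 6.26 and 5.73 in IDH1wt and 5.72, 6.79 and 5.72 in CTL, with the same high array in each group; their part in the Ccr9 difference was not tested. Of 11 dendritic cell markers 3 rose and 2 fell in IDH1mut against CTL, and 8 were lower on average (median log2 difference -0.23). The shares changed were 27.3% for B cell and 45.5% for dendritic cell markers, beside 20.7% of all genes. The Ccr9 probe set, like that of Cxcl1, carries the suffix that Affymetrix gives to probes that may bind other transcripts. Its ligand gene Ccl25 read between 4.82 and 5.07 on all arrays and did not pass (-0.07 ± 0.10 in IDH1mut against CTL; adjusted p = 0.672).

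Ccrl2, an atypical receptor that binds chemerin and is induced on activated neutrophils and macrophages, read 6.89, 6.56 and 6.68 in IDH1mut, 6.34, 6.34 and 6.31 in IDH1wt and 6.33, 6.21 and 6.43 in CTL. All IDH1mut arrays were above the rest, and IDH1wt arrays lay inside the CTL range. The rise was 0.39 ± 0.11 against CTL (adjusted p = 0.0239) and 0.38 ± 0.11 against IDH1wt (adjusted p = 0.0379). Against CTL the call was lost without CTL replicate 1 (adjusted p = 0.0718) or 2 (0.0842) or IDH1mut replicate 1 (0.0789) or 3 (0.0512). Against IDH1wt it was lost without CTL replicate 1 (0.0608), IDH1wt replicate 1 (0.0804), 2 (0.0738) or 3 (0.107), or IDH1mut replicate 1 (0.114) or 3 (0.0726). The call against IDH1wt was also lost on centred arrays (0.0566), on the 6 arrays compared (0.0683) and in the unmoderated test (0.0659).

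Ccr10, the skin- and mucosa-homing receptor of CCL27 and CCL28, was the receptor that fell. It read 4.96, 4.77 and 4.74 in IDH1mut, 5.04, 5.15 and 4.80 in IDH1wt and 5.16, 5.19 and 5.38 in CTL, so that IDH1wt arrays bridged the gap between IDH1mut and CTL without overlapping CTL. The difference was -0.42 ± 0.12 in IDH1mut against CTL (adjusted p = 0.0247). It did not pass without CTL replicate 3 (adjusted p = 0.0981) or IDH1mut replicate 2 (0.0759) or 3 (0.083).

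Cxcr4, the marrow retention receptor, read 11.00, 10.82 and 10.92 in IDH1mut, 10.62, 10.69 and 10.59 in IDH1wt and 10.73, 10.47 and 10.72 in CTL. Although its IDH1mut arrays lay above all others, the difference did not pass (0.27 ± 0.10, adjusted p = 0.0822, against CTL; 0.28 ± 0.10, adjusted p = 0.0972, against IDH1wt). Both passed when genes above the median of gene means were tested alone (adjusted p = 0.0338 and 0.0403). Cxcr6, the receptor of CXCL16, differed by 0.49 ± 0.15 between IDH1mut and IDH1wt (adjusted p = 0.057), a difference that passed without IDH1mut replicate 1 (adjusted p = 0.00941). With every array kept, it passed with the intensity trend (0.0416) and with array weights (0.0488). Ccr7, the lymph node homing receptor, had a 95% interval of -0.01 to 0.67 in IDH1mut against CTL (0.33 ± 0.15; adjusted p = 0.169). The remaining 6 signalling and 4 atypical receptors did not pass in any of the 3 comparisons.

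Of the 31 ligands 3 changed in IDH1mut against CTL (9.68%, beside 20.7% of all genes), and all 3 were CC ligands of CCR1. Ccl6, made by neutrophils, macrophages and myeloid progenitors in the mouse, read 11.54, 10.85 and 10.66 in IDH1mut, 9.90, 9.83 and 9.88 in IDH1wt and 9.09, 9.26 and 9.13 in CTL. The 3 groups formed 3 separate levels with no overlap. The Ccl6 probe set carries the suffix that Affymetrix gives to probes shared by several transcripts, and it is annotated to Ccl6 alone. Ccl6 rose by 1.86 ± 0.18 in IDH1mut against CTL (adjusted p = 8.37e-05) and by 1.15 ± 0.18 in IDH1mut against IDH1wt (adjusted p = 0.00225). In IDH1wt against CTL it was 0.71 ± 0.18 and did not pass (adjusted p = 0.0696); that difference passed without IDH1mut replicate 1 (adjusted p = 0.00462) or 3 (0.0456), arrays that enter it only through the common estimate of spread, and when only the 6 IDH1wt and CTL arrays were fitted (0.00757).

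Ccl9, the chemokine MIP-1 gamma of myeloid cells and osteoclasts, read 10.47, 9.78 and 9.65 in IDH1mut, 10.96, 10.42 and 10.56 in IDH1wt and 10.87, 10.87 and 10.95 in CTL. It was near-constant in CTL and varied most in IDH1mut, whose replicate 1 overlapped the IDH1wt arrays. Ccl9 fell by 0.93 on the log2 scale in IDH1mut against CTL (-0.93 ± 0.20; adjusted p = 0.00666), a call that the unmoderated test did not keep (adjusted p = 0.0548). Against IDH1wt it was -0.68 ± 0.20 (adjusted p = 0.0424), and this call was lost on leaving out any 1 of 7 arrays: CTL replicate 1 (adjusted p = 0.0598), 2 (0.0595) or 3 (0.0609), IDH1wt replicate 1 (0.141) or 3 (0.0844), or IDH1mut replicate 2 (0.136) or 3 (0.149). The call against IDH1wt was also lost on the 6 arrays compared (0.0874), with the intensity trend (0.0859) and in the unmoderated test (0.157).

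Ccl3, the inflammatory chemokine MIP-1 alpha, read 7.74, 7.36 and 7.57 in IDH1mut, 7.28, 7.80 and 7.63 in IDH1wt and 8.22, 7.98 and 8.27 in CTL. Both IDH1 groups lay below all CTL arrays and overlapped each other. The difference from CTL was -0.60 ± 0.15 in IDH1mut (adjusted p = 0.0138) and -0.58 ± 0.15 in IDH1wt (adjusted p = 0.0679), and IDH1mut against IDH1wt gave -0.02 with a 95% interval of -0.34 to 0.30. In IDH1mut the call was lost without CTL replicate 1 (adjusted p = 0.0527) or 3 (0.0558) or IDH1mut replicate 2 (0.0554), and in IDH1wt it was gained with array weights (0.0197).

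In the RefSeq gene table Ccl5, Ccl9, Ccl6, Ccl3 and Ccl4 follow each other on chromosome 11 with no other protein-coding gene between them. In IDH1mut against CTL their log2 differences in that order were 0.51, -0.93, 1.86, -0.60 and -0.29, so that Ccl6 rose between 2 neighbours that fell. Ccl5, the T cell and monocyte attractant RANTES, read 7.68, 8.44 and 8.20 in IDH1mut, 7.52, 7.70 and 7.48 in IDH1wt and 7.61, 7.45 and 7.73 in CTL. Its IDH1mut replicate 1 lay inside the CTL range. The difference from CTL did not pass in the fit of all genes and arrays (0.51 ± 0.17, adjusted p = 0.0524). It passed without that array (0.72, adjusted p = 0.00364). With every array kept, it passed among genes above the median of gene means (adjusted p = 0.0307) and on centred arrays (0.0476). Array weights (0.0214) and the intensity trend (0.0318) gave the call as well. Against IDH1wt Ccl5 was 0.54 ± 0.17 and did not pass (adjusted p = 0.056), but did without IDH1mut replicate 1 (0.00512). In IDH1mut against CTL Ccl4, MIP-1 beta, was -0.29 ± 0.12 (adjusted p = 0.126), and Ccl2, the monocyte attractant MCP-1, was -0.03 ± 0.11 (adjusted p = 0.879).

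The opposite moves of Ccl6 and Ccl9 were set against each other after their values had been seen, as a description with no test. On IDH1mut replicates 1, 2 and 3, Ccl6 stood 2.38, 1.69 and 1.50 above its CTL mean, and Ccl9 stood at -0.42, -1.11 and -1.24 from its own. The array with the highest Ccl6 was thus the one with the highest Ccl9. The Ccl6 move minus the Ccl9 move was 2.80, 2.81 and 2.74 on these arrays (2.78 ± 0.04, SD, n = 3), against 0.67, 1.13 and 1.05 on the IDH1wt arrays and -0.04, 0.12 and -0.08 on the CTL arrays. Among the IDH1mut arrays the SD of this difference was below that of either gene (0.46 for Ccl6 and 0.44 for Ccl9). That was not so in the other groups: it was 0.25 in IDH1wt, where Ccl6 had 0.04 and Ccl9 0.28, and 0.11 in CTL, where Ccl6 had 0.09 and Ccl9 0.05.

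**Figure D2:**
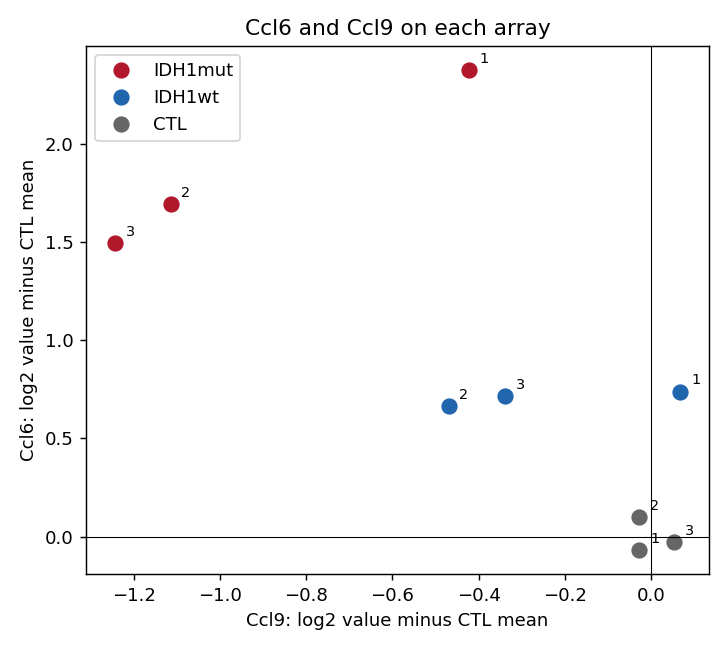
Log2 value of Ccl6 (vertical axis) and Ccl9 (horizontal axis) on each array, each less the CTL mean of that gene, with the replicate number beside the point. The IDH1mut arrays lie at the upper left along a rising line, the IDH1wt arrays lie near 0.71 for Ccl6, and the CTL arrays lie around 0.

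Marker genes of myeloid cells are given beside these genes. In IDH1mut against CTL 66.7% of late neutrophil, 45.5% of monocyte and 41.7% of macrophage markers changed. Over all genes the share was 20.7%, and it was 35.1% above the median of gene means. All late neutrophil and monocyte markers lay above that median, as did 9 of 12 macrophage markers. Of 12 late neutrophil markers 8 rose and 0 fell in IDH1mut against CTL, and the log2 of their summed level ranged from 16.84 to 16.88 in IDH1mut, from 16.55 to 16.58 in IDH1wt and from 16.51 to 16.59 in CTL. Of 11 monocyte markers 1 rose and 4 fell, with a summed level from 14.56 to 14.90 in IDH1mut, from 14.77 to 14.81 in IDH1wt and from 14.71 to 14.77 in CTL. The mean log2 level of the monocyte markers was 10.56, 9.89 and 10.06 in IDH1mut, 10.57, 10.54 and 10.52 in IDH1wt and 10.52, 10.58 and 10.51 in CTL. IDH1mut replicate 1, the array highest for Ccl6 and highest of its group for Ccl9, was the highest IDH1mut array here too. This array was also the highest of its group for macrophage markers (6.73, 6.54 and 6.53 in IDH1mut) and late neutrophil markers (12.88, 12.86 and 12.80). It was the highest of its group for none of the other marker lists. Of 12 macrophage markers 3 rose and 2 fell. In IDH1mut against IDH1wt 7 late neutrophil markers rose and 0 fell, and 2 monocyte markers rose and 5 fell (median log2 difference -0.61). There 0 macrophage markers rose and 2 fell, and 1 dendritic cell marker rose and 5 fell. Of eosinophil, basophil and mast cell markers 0 rose and 6 fell (median -1.21). The shares changed were, in that order, 58.3%, 63.6%, 16.7%, 54.5% and 60%. Over all genes 13.3% changed, and 22.8% of those above the median of gene means. The part of these markers in the differences of Ccl6, Ccl9, Ccl3, Ccr1 and Ccrl2 was not tested, and in bulk RNA fewer cells of a type and less RNA per cell cannot be told apart. For the remaining lists counts of risen and fallen genes refer to IDH1mut against CTL. They were 9 and 0 of 10 for erythroid markers (90%) and 0 and 4 of 10 for eosinophil, basophil and mast cell markers (40%). They were 1 and 1 of 9 for megakaryocyte and platelet markers (22.2%) and 1 and 1 of 13 for stromal and endothelial markers (15.4%).

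None of the 12 CXC ligands passed in any comparison by limma. Under an unadjusted p of 0.05 there were 2 in IDH1mut against CTL (16.7%, beside 32.3% of all genes), 1 in IDH1wt against CTL (8.33%, beside 17%) and 3 in IDH1mut against IDH1wt (25%, beside 26.7%). Cxcl2, a neutrophil attractant of the inflammatory response, read 6.61, 5.50 and 5.25 in IDH1mut, 4.09, 5.21 and 4.56 in IDH1wt and 5.17, 5.83 and 5.06 in CTL. Its IDH1mut arrays were above all IDH1wt arrays and overlapped CTL. The difference of 1.17 ± 0.36 between IDH1mut and IDH1wt did not pass (adjusted p = 0.0512). It passed without IDH1wt replicate 2 (adjusted p = 0.0272) or IDH1mut replicate 3 (0.0424). With every array kept, it passed among genes above the median of gene means (0.0343), on centred arrays (0.0462) and with array weights (0.0385).

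Cxcl10, the interferon-induced ligand of CXCR3, read 6.94, 6.50 and 6.70 in IDH1mut, 6.35, 6.85 and 6.50 in IDH1wt and 6.36, 6.08 and 6.33 in CTL. The IDH1mut arrays lay above CTL without overlap, and the difference of 0.46 ± 0.15 just missed the threshold (adjusted p = 0.0529). It passed without IDH1mut replicate 2 (adjusted p = 0.038) and without IDH1wt replicate 1 (0.0432) or 2 (0.031). With every array kept, it passed among genes above the median of gene means (0.0297), with the intensity trend (0.0293) and with a second quantile normalisation (0.0474). Cxcl9, another CXCR3 ligand, gave -0.10 ± 0.17 in IDH1mut against CTL (adjusted p = 0.741), and Cxcl11 gave -0.05 ± 0.13 (adjusted p = 0.851). The 3 ligands of the risen receptor therefore had no called change. Cxcl1, a neutrophil attractant next to Cxcl2 on chromosome 5, was -0.35 ± 0.13 in IDH1mut against CTL (adjusted p = 0.0776).

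**Figure D3:**
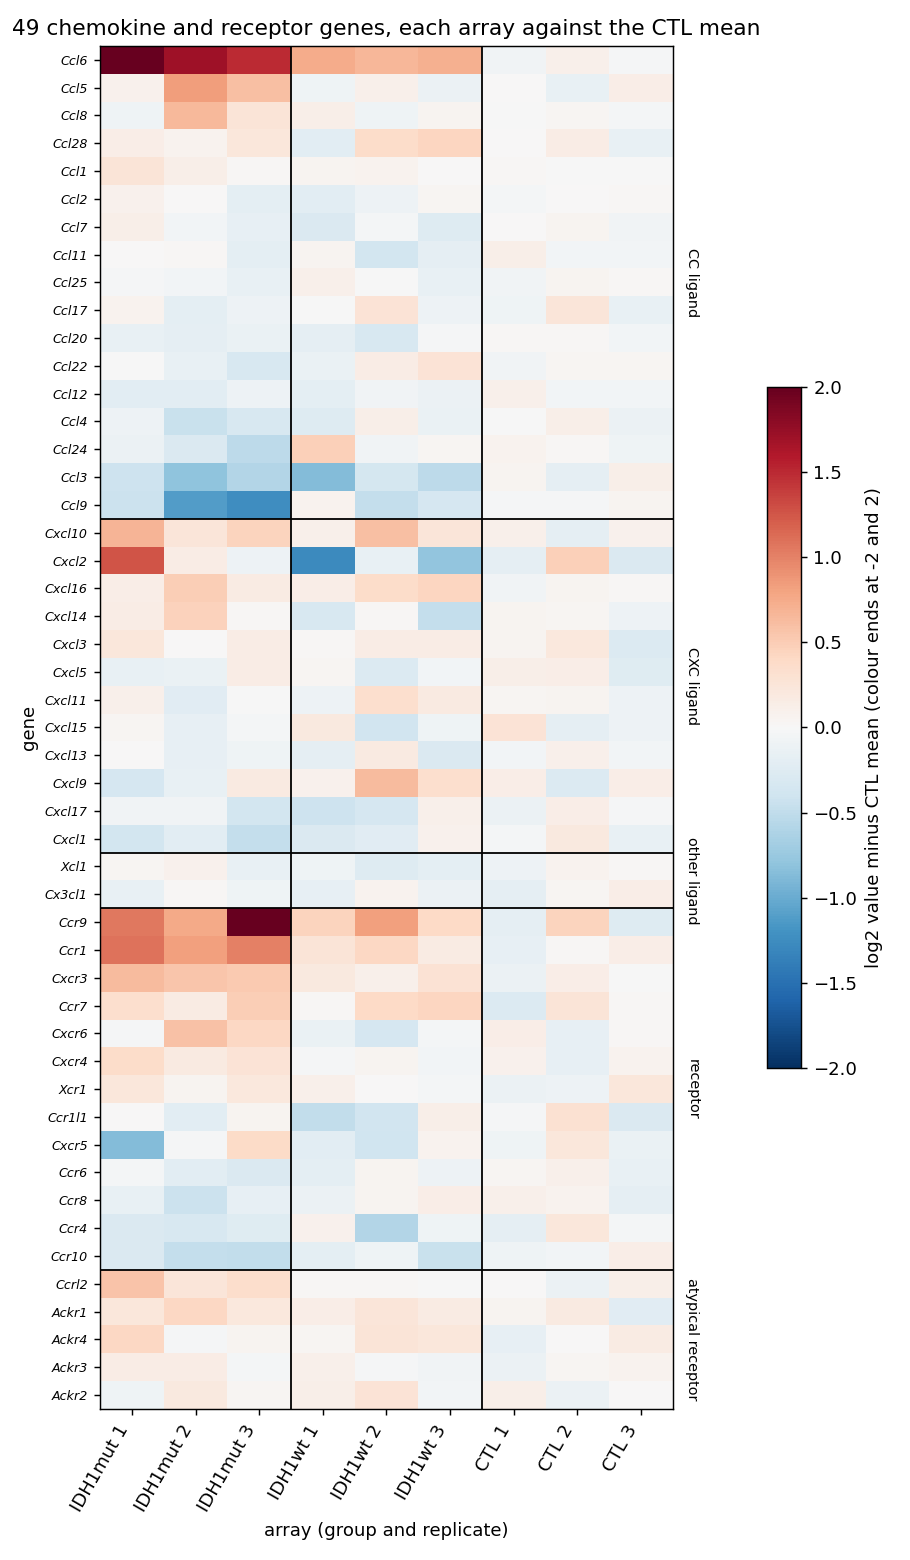
The log2 value of each of the 49 members on each of the 9 arrays, less the CTL mean of that gene, grouped by role; red is above and blue below the CTL mean, and the colour scale ends at -2 and 2, so Ccl6 on IDH1mut replicate 1 (2.38) and Ccr9 on IDH1mut replicate 3 are cut short. Strong colour is limited to few genes, and most members stay near their CTL mean in both IDH1 groups.

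In IDH1wt against CTL, 0 of the 49 members changed by limma, where 2.33% of all genes did (1.62% rose and 0.711% fell). At an unadjusted p under 0.05 there were 4 members, Ccl6, Ccl3, Ccr1 and Cxcl16 (8.16%, beside 17% of all genes), and the arrays of 6 members did not overlap between the groups (23.6% of all genes did not overlap). Array weights called 2, Ccl6 up and Ccl3 down, and 1226 of all 17731 genes. Ccl6, Ccl3, Ccr1 and Cxcl16 lay on the same side of CTL as in IDH1mut. The comparisons of IDH1mut and IDH1wt with CTL share the 3 CTL arrays. The number of arrays limits the precision of all 3 comparisons.

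In IDH1mut against IDH1wt, Ccl6, Ccr1, Cxcr3 and Ccrl2 rose and Ccl9 fell. These 5 of 49 (10.2%) stand beside 13.3% of all genes (6.54% rose and 6.78% fell), and the arrays of 10 members did not overlap, where 29.5% of all genes did not. Ccl6 was 2.22-fold and Ccr1 1.61-fold higher in IDH1mut. Ccl24, the eosinophil attractant eotaxin-2, was -0.46 ± 0.15 (adjusted p = 0.0652), and Cxcl14, a chemokine made by epithelia, was 0.46 ± 0.14 (adjusted p = 0.0558) from a dim probe set. Ccl24 and Cxcl14 passed without IDH1wt replicate 2 (adjusted p = 0.0392 for Ccl24 and 0.0186 for Cxcl14). With every array kept, both passed with the intensity trend (0.0422 for Ccl24 and 0.0393 for Cxcl14). The count was 3 without CTL replicate 1 (1936 of all 17731 genes), IDH1wt replicate 3 (1475), IDH1mut replicate 2 (1528) or IDH1mut replicate 3 (1764). It was 2 without IDH1wt replicate 1 (1619).

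**Figure D4:**
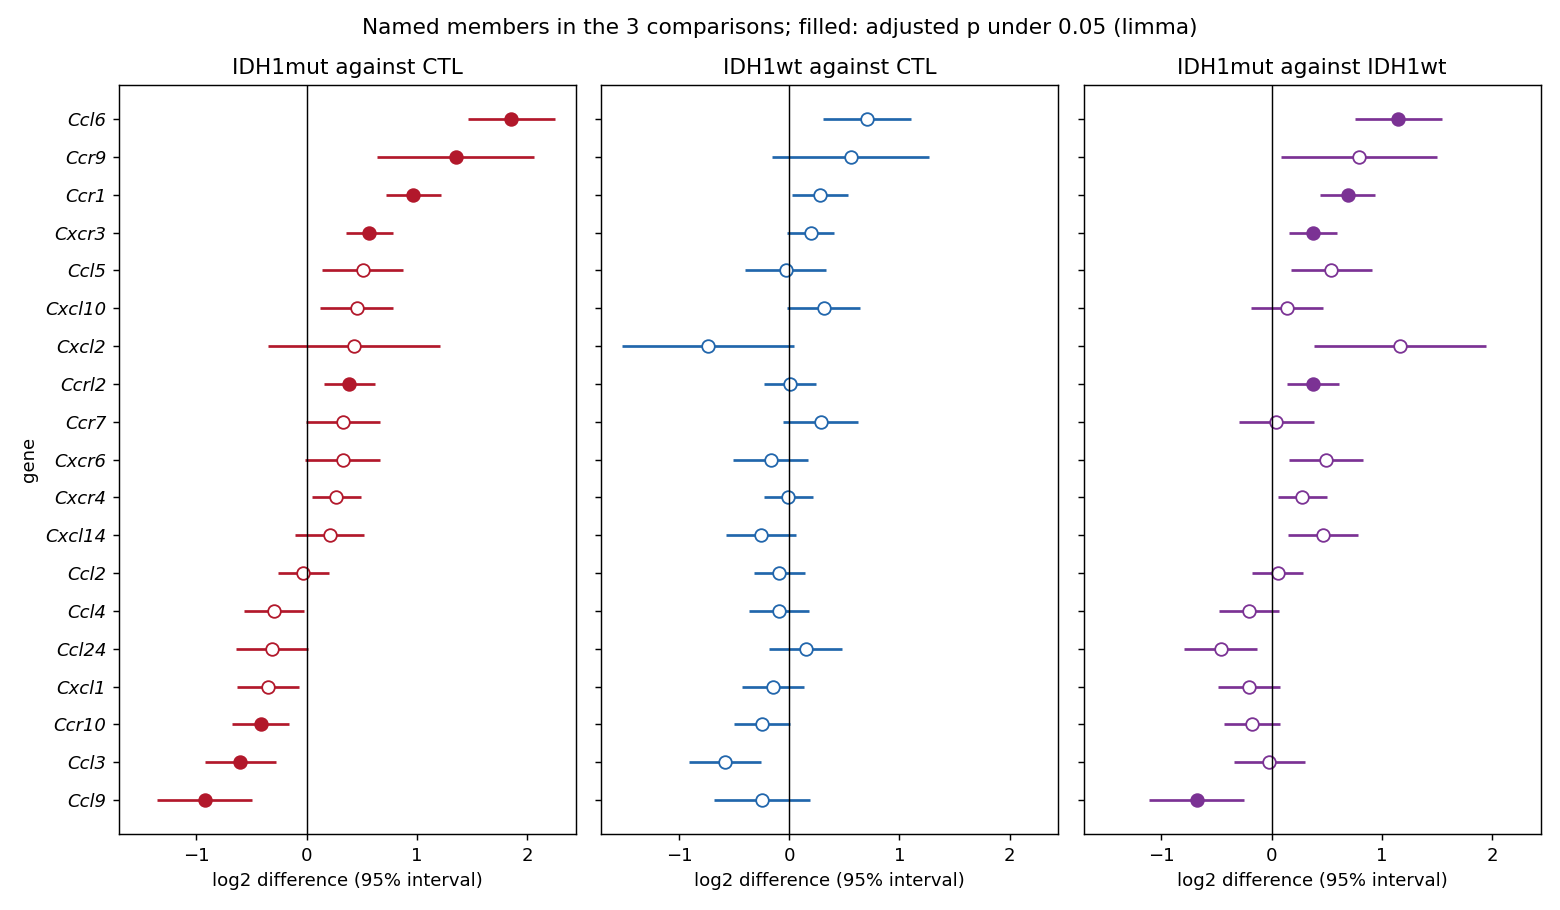
Log2 difference (horizontal axis) with its 95% interval for 19 members, in each of the 3 comparisons; filled points have an adjusted p under 0.05. Ccl6, Ccr1, Cxcr3, Ccrl2 and Ccl9 are filled in both comparisons of IDH1mut, and no point is filled for IDH1wt against CTL.

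The 30 members not in that plot had log2 differences between -0.28 and 0.28 in IDH1mut against CTL (lowest adjusted p = 0.108), between -0.25 and 0.35 in IDH1wt against CTL (0.22) and between -0.45 and 0.25 in IDH1mut against IDH1wt (0.112). They include the eotaxin Ccl11, the monocyte attractants Ccl7, Ccl8 and Ccl12, the B cell zone pair Cxcl13 and Cxcr5, and the dendritic cell receptor Xcr1 with its ligand Xcl1.

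Downstream of the receptors, 61 genes of chemokine signalling were measured. The list held G protein subunits, phosphoinositide 3-kinases, receptor kinases, arrestins, RGS proteins, exchange factors of small GTPases and Src and JAK kinases. It also held more general signalling genes, among them the phospholipase genes Plcb2 and Plcb3, Rac1, Rhoa, Akt1, Stat3, Foxo3, Shc1 and Grb2. In IDH1mut against CTL 18 rose and 6 fell (39.3%, beside 20.7% of all genes), with a median log2 difference of 0.18 against -0.04 over all genes. The list was brighter than genes in general, with 51 of 61 above the median of gene means, where 35.1% of genes changed. Arrb2, an arrestin that uncouples and internalises chemokine receptors, read 10.93, 11.03 and 11.03 in IDH1mut, 10.09, 10.33 and 10.15 in IDH1wt and 9.96, 9.97 and 10.01 in CTL, and rose by 1.02 ± 0.09 (adjusted p = 5.43e-05). Its IDH1mut arrays stood far above the others and close to each other.

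Tiam2, an exchange factor of the GTPase RAC1, rose by 1.44 ± 0.15 (adjusted p = 0.000114), Rgs2, which shortens G protein signals, by 1.16 ± 0.19, the receptor kinase gene Grk5 by 0.99 ± 0.20 and the Src family kinase gene Fgr by 0.80 ± 0.11. The Rgs2 probe set was dim, at 5.64, 4.68 and 5.19 in IDH1mut and 4.06, 4.08 and 3.89 in CTL. The CTL values lay below the median of gene means (4.94), and whether Rgs2 was present there was not tested. Subunits of the G protein-driven kinase PI3K gamma rose together, Pik3cg by 0.59 ± 0.09 and Pik3r5 by 0.56 ± 0.10. The genes that fell were led by Jak3 (-0.80 ± 0.09; adjusted p = 0.000238), a kinase of lymphoid cytokine receptors, Vav2 (-0.73 ± 0.15) and Elmo1 (-0.71 ± 0.16), the last 2 of which activate RAC. The Elmo1 call was lost in the unmoderated test (adjusted p = 0.0542). Pik3cd, Pik3r1 and Plcb2 also fell, Plcb2 with a call lost without any 1 of 5 arrays (adjusted p up to 0.164 without CTL replicate 1) and Pik3cd without CTL replicate 1 (0.0506) or 3 (0.0509).

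In IDH1wt against CTL 1 of the 61 rose and 1 fell (3.28%, beside 2.33% of all genes). Plcb3, a phospholipase driven by G proteins, read 6.78, 7.24 and 7.17 in IDH1wt and 6.13, 6.42 and 6.44 in CTL and rose by 0.74 ± 0.13 (adjusted p = 0.0154; up to 0.0725 without CTL replicate 1, and lost as well without IDH1wt replicate 2 or 3). Its IDH1mut arrays, at 6.21, 6.27 and 6.19, overlapped CTL. Plcb2 fell (-0.54 ± 0.12; adjusted p = 0.0392; up to 0.168 without CTL replicate 1, and lost without any 1 of 7 arrays in all). In IDH1mut against IDH1wt 9 of 61 rose and 5 fell (23%, beside 13.3% of all genes and 22.8% of those above the median of gene means), with Tiam2 (1.29 ± 0.15), Rgs2 (0.91 ± 0.19) and Arrb2 (0.81 ± 0.09) up and Gng11 (-1.12 ± 0.27), Plcb3 (-0.84 ± 0.13) and Vav2 (-0.74 ± 0.15) down. The unmoderated test lost the calls of Rgs2 (adjusted p = 0.0744), Vav2 (0.0539) and Gng11 (0.119). The Gng11 call was also lost without IDH1wt replicate 1 (adjusted p = 0.0635) or 3 (0.0617) or IDH1mut replicate 1 (0.0698) or 3 (0.0628).

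**Figure D5:**
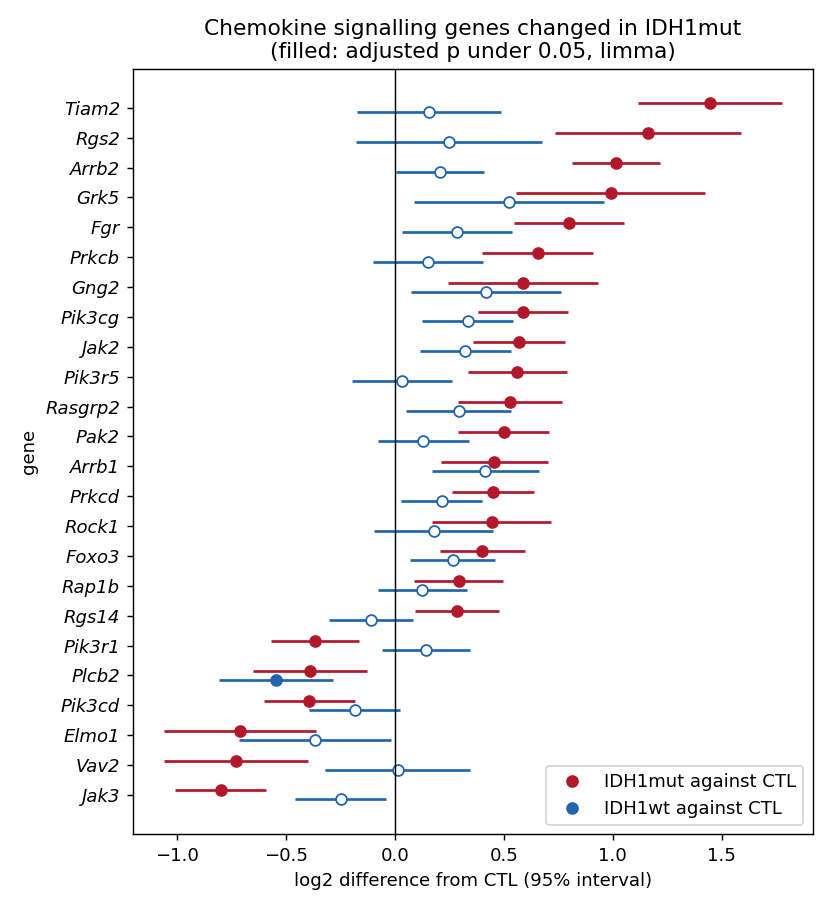
Log2 difference from CTL with its 95% interval for the 24 chemokine signalling genes that changed in IDH1mut, in IDH1mut (red) and IDH1wt (blue); filled points have an adjusted p under 0.05. Of the blue points only Plcb2 is filled.

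Over all genes, arrays of a group correlated at 0.992 to 0.997 and arrays of different groups at 0.982 to 0.992. The array furthest from the other 2 of its group was IDH1mut replicate 2 for 19 of 49 members (29.6% of all genes), IDH1wt replicate 2 for 23 (34.6%) and CTL replicate 2 for 21 (42.8%).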

How the data were processed

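The deposited table held log2 expression values per probe set on 9 arrays, made by the authors from 3 µg of total RNA per the labels' protocols. Per the submitters' processing notes the values are RMA values, a method of background correction, quantile normalisation and probe summary, named there without a version. Values ran from 1.72 to 14.2 with array medians of 4.65 to 4.72. Probe sets were named with the platform annotation. Of 20877 probe sets, the 17815 with a single gene symbol were used, and the 244 with more than 1 and the 2818 without one were not. The probe set of highest mean was kept per gene. Values of different probe sets are not compared as levels.

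Group means of all 17731 genes were estimated over the 9 arrays with limma 3.58.1 (R 4.3.3), with 3 two-sided moderated contrasts and Benjamini-Hochberg adjustment per contrast at 0.05. The fit was tested on simulated data, which held fewer changed genes than these data. It called 17 of 50 genes with a log2 difference of 0.5, 42 of 50 with 1, and all 50 with 2 and with 3. Of 165 calls 6 were false. Named genes were all members that passed, a fixed set (Cxcr4, Ccr1, Ccr7, Cxcl2, Ccl2 to Ccl5), members with an adjusted p from 0.05 to 0.1, and up to 5 signalling genes per direction; Ccl25, Cxcl9, Cxcl11, Cxcl16, Pik3cg and Pik3r5 in IDH1mut against CTL, and the promoter motif TATAAA were added after their values were seen. The summed level of a marker list is the log2 of its summed linear values. The members and lists were chosen with earlier results of these data known. Promoters come from RefSeq tables; protein sequences were not used here.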

Additional observations from a re-analysis of the deposited data

How the results depend on the processing

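The 19 alternatives changed how probe sets were joined into genes (averaged, or each tested alone), the genes tested (those above the median of gene means), the scaling (a second quantile normalisation, or centred arrays), the arrays fitted (the 6 compared), the spread (an intensity trend with robust variances, array weights, an unmoderated test, the replicate block) or left out 1 array. Ccl6 and Ccr1 kept their calls in IDH1mut against CTL and against IDH1wt under all 19, as did Cxcr3 against CTL. In brackets is the count over all 17731 genes in the same setting, or over the 8865 brighter genes, which hold 17 members. The count of changed members in IDH1mut against CTL was 4 in the unmoderated test (2955) and 5 to 10 on leaving out an array (2370 to 3805). With every array kept, calls of Ccl5, Cxcl1, Cxcl10 and Cxcr4 were gained among the brighter genes (3991). Those of Ccl5, Cxcl10 and Cxcr4 were gained with the trend (4123), and that of Ccl5 with array weights (4452). No called member tested in these settings lost its call. In IDH1wt against CTL the count of changed members was 2 among the brighter genes (580), 1 on the 6 arrays (470) and 1 with the trend (717). It was 2 with array weights (1226) and 0 to 1 on leaving out an array (132 to 570). In IDH1mut against IDH1wt it was 9 among the brighter genes (2827), 3 on the 6 arrays (1662) and 9 with the trend (2821). It was 9 with array weights (2557), 3 in the unmoderated test (1719) and 2 to 6 on leaving out an array (1475 to 2193). The cause was not tested.

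Same-numbered arrays had deviations correlated between -0.086 and 0.026, and differently numbered arrays between -0.075 and 0.084. No shared deviation by replicate number was thus seen, but whether the arrays were paired by design is not given in the labels. With the replicate block 8 members changed in IDH1mut against CTL (3383 of all 17731 genes). The count was 0 in IDH1wt against CTL (314) and 5 in IDH1mut against IDH1wt (2035). Of the last 5, 3 were called without the block too; Ccrl2 (adjusted p = 0.0501) and Cxcr3 (0.0554) were lost, and Ccl24 (0.0354) and Cxcl14 (0.0238) were gained.

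Some uncalled differences near 0 changed sign. In IDH1mut against IDH1wt Ccl3 was 0.0007 with the second quantile normalisation and -0.165 to 0.0955 on leaving out an array, Ccr7 was -0.0436 with array weights and -0.0859 to 0.125 on leaving out an array, and Ccl2 was -0.0069 to 0.141 on leaving out an array. In IDH1wt against CTL Ccrl2 was -0.0138 with the second quantile normalisation, -0.0107 with array weights and -0.0483 to 0.0655 on leaving out an array. Cxcr4 was 0.05 with the second quantile normalisation, 0.0082 with centred arrays and -0.0911 to 0.0386 on leaving out an array. On leaving out an array Ccl5 was -0.106 to 0.0371 and Ccl24 -0.018 to 0.263 in IDH1wt against CTL, and Ccl2 was -0.0922 to 0.0525 in IDH1mut against CTL.

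Over all genes, 414 changed in IDH1wt against CTL, 717 with the trend, 1226 with array weights, 58 in the unmoderated test and 132 to 570 on leaving out an array. The count was 2370 without CTL replicate 1, against 3663 with all arrays, in IDH1mut against CTL, and 1475 without IDH1wt replicate 3 and 1528 without IDH1mut replicate 2, against 2363, in IDH1mut against IDH1wt. The deposited values hold no detection call, so no limit from signal over background was computed.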

Other observations

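A further probe set, left out of the tests because it is annotated to 10 genes including Ccl19, the ligand of CCR7, read 4.73, 4.63 and 4.34 in IDH1mut, 4.63, 4.89 and 4.41 in IDH1wt and 4.58, 4.64 and 4.63 in CTL. The 3 groups overlapped.

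The members varied slightly more between replicates than genes in general: the median SD was 0.15 over members and 0.13 over all genes in IDH1mut, 0.16 and 0.13 in IDH1wt, and 0.13 and 0.11 in CTL. The arrays of 17 of the 49 members did not overlap between IDH1mut and CTL, 9 higher and 8 lower in IDH1mut (37.8% of all genes did not overlap, 16.3% higher and 21.5% lower). Between IDH1mut and IDH1wt the count was 10, with 8 higher and 2 lower (14.1% of all genes higher and 15.5% lower).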
